A study of Mesocricetus auratus with 6 samples.

Results

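Immediate early genes are transcribed within minutes of a stimulus, before any new protein has to be made. In neurons, calcium and cyclic AMP signals reach transcription factors such as CREB, SRF and MEF2, which already sit in the nucleus, and the RNAs that follow are short-lived. In the suprachiasmatic nucleus (SCN), the hypothalamic site of the circadian clock, light at night is known to induce Fos and Egr1. In the cortex the same genes follow waking activity, and in the liver they respond to growth factors, feeding and stress.

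The 10 genes described here were Fos, Fosb, Junb, Egr1, Egr3, Nr4a1, Npas4, Arc, Dusp1 and Ier2. They were chosen as activity-induced genes, with earlier results of these data known, and make up 10 of the 31593 genes in the tables. All 10 were found under these symbols and all 10 passed the filter on low counts that left 18275 genes to test. The hamsters were Syrian hamsters (Mesocricetus auratus), either wild type of the Lakeview (LVG) ecotype or homozygous for duper. The duper allele is a frameshift in Cry1 that leaves no functional CRY1. The allele was first kept together with tau, and the line used here carries duper alone on an LVG background. Days during rearing had 14 h of light and 10 h of dark, and food was not restricted. Tissue was taken at circadian time 15 (CT15), in the early subjective night. Neither the age of the hamsters nor the lighting before collection is given in the labels.

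Each genotype was represented by 4 hamsters, from which cortex, SCN and liver were taken. The 4 duper hamsters were all female, while wild type had 2 of each sex, so genotype and sex cannot be told apart in full. RNA of 4 hamsters was pooled into 1 library for each cortex and each SCN group. For liver, the reads of 4 libraries were merged. There was therefore 1 set of values for each genotype and tissue, 6 in all, with no replicate inside a tissue. Each set is called a library below, the merged liver sets included. The spread between hamsters is unknown, and the intervals below cover counting error only. Each is a 95% interval.

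Depth differed widely. The estimated counts added up to 6788947 in wild type cortex, 10391925 in duper cortex, 29936218 in wild type SCN, 7248840 in duper SCN, 69839214 in wild type liver and 85748562 in duper liver. Levels are given in TPM, Kallisto's measure of a transcript's share of all transcripts in a library, which corrects for transcript length and depth and so can be compared between genes. A few genes dominated the liver libraries: the top 10 held 22.8% of wild type liver counts and 24.9% of duper liver counts, against at most 3.71% in any brain library. This lowers the TPM of all other liver genes, which matters for each comparison with liver below.

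The tissue labels were checked against marker genes. Of 9 SCN markers, 6 were in the tables, and Avp, Vip and Grp were not analysed here. Nms reached 33.5 TPM in wild type SCN from 94 counts, 13.4 TPM in duper SCN from 9 counts, and was at 0 in the cortex and liver libraries. Six6 reached 8.79 TPM in wild type SCN, with 142 counts there and 23 in duper SCN, and was under 1 TPM in cortex and liver. Prok2, also on the list, stayed under 1 TPM in all 6 libraries, SCN included. The 6 SCN markers summed to 87.9 TPM in wild type SCN and 54.1 TPM in duper SCN. In wild type liver they summed to 126 TPM and in duper liver to 136 TPM, nearly all of it Rgs16, which is not confined to the SCN. Genes of the neighbouring hypothalamus and pituitary (5 of 11 analysed) summed to 83.0 TPM in wild type SCN, led by Pmch at 58.2 TPM. Their sum was 44.6 TPM in duper SCN, led by Pomc at 17.4 TPM, with Hcrt at 0. Pmch, Pomc and Hcrt are made outside the SCN, and the part of neighbouring tissue in the results below was not tested. Hepatocyte markers summed to 133331 TPM in wild type liver and 142542 TPM in duper liver. In brain they summed to 1962 TPM in wild type cortex, 2556 TPM in duper cortex, 226 TPM in wild type SCN and 106 TPM in duper SCN. Ttr led in each of these except duper SCN, where Alb led at 72.9 TPM. The source of these brain levels was not tested.

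Added together, the 10 immediate early genes were far more abundant in cortex than elsewhere. Their summed level was 582 TPM in wild type cortex, 548 TPM in duper cortex, 63.2 TPM in wild type SCN, 70.3 TPM in duper SCN, 52.1 TPM in wild type liver and 40.7 TPM in duper liver. The cortex libraries did not overlap with the others. The order of SCN and liver depended on scaling: divided by the TMM factors, the sums were 44.8 in wild type SCN and 50.2 in duper SCN, below 86.1 in wild type liver and 75.6 in duper liver, with 469 in wild type cortex and 438 in duper cortex. Egr1 was the most abundant member in both cortex libraries. In SCN the leading member was Dusp1 in wild type and Fos in duper, and in liver it was Dusp1 in wild type and Junb in duper.

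**Figure D1:**
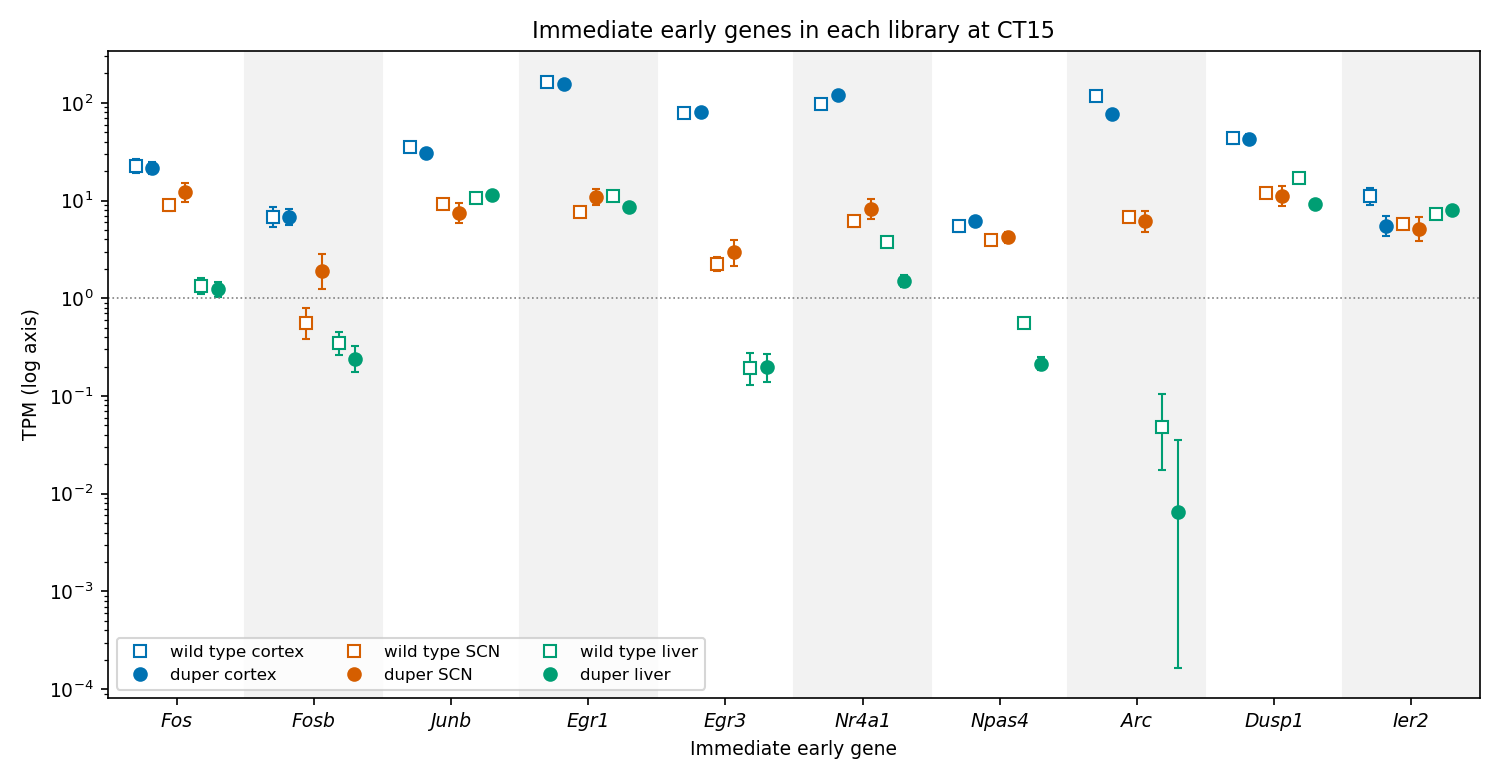
TPM of each immediate early gene (log axis) in the 6 libraries, with wild type as open squares and duper as filled circles, coloured by tissue; bars are 95% Poisson intervals of the counts. Cortex is highest for 9 of the 10 genes in both genotypes, while Ier2 in duper cortex (5.55 TPM) sits below both liver libraries.

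The members of the AP-1 family come first. Fos encodes a leucine zipper protein that pairs with JUN proteins to form AP-1. Fos was at 22.7 TPM in wild type cortex, 21.7 TPM in duper cortex, 8.93 TPM in wild type SCN, 12.2 TPM in duper SCN, 1.35 TPM in wild type liver and 1.24 TPM in duper liver. Cortex was highest and liver lowest in each genotype, with no overlap between tissues. Between SCN and cortex, with the genotypes standing in for replicates of a tissue, its log2 fold change was -1.10 (SE 0.27). Genes were called when edgeR's quasi-likelihood test gave a Benjamini-Hochberg adjusted p under 0.05 over all 18275 genes together with an absolute log2 fold change over 0.58. By that rule Fos fell in SCN against cortex, only just, with an edgeR adjusted p of 0.0454. The call rested on all the brain libraries: the edgeR adjusted p was 0.226 without duper cortex, 0.130 without duper SCN, 0.394 without wild type cortex and 0.399 without wild type SCN. The fold change without each of those libraries stayed negative, from -1.30 to -0.86.

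Fosb encodes a close relative of FOS that also pairs with JUN proteins. Fosb was the least abundant member in SCN, where it had 31 counts in wild type (0.562 TPM) and 25 in duper (1.91 TPM). It was at 6.87 TPM in wild type cortex and 6.78 TPM in duper cortex, and at 0.348 TPM in wild type liver and 0.242 TPM in duper liver. Cortex stood above both other tissues without overlap, whereas the counting intervals of wild type SCN and wild type liver overlapped. In SCN against cortex the log2 fold change was -2.68 (SE 0.59, edgeR adjusted p 0.0326). That call did not hold when some libraries were left out: the edgeR adjusted p was 0.180 without duper cortex, 0.271 without wild type cortex and 0.214 without wild type SCN. Without wild type SCN the fold change was -1.74, and without wild type cortex it was -2.33. Over all the alternatives it ranged from -3.67 to -1.74.

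Junb encodes a JUN protein, a partner of FOS and FOSB. Junb was at 35.6 TPM in wild type cortex, 30.4 TPM in duper cortex, 9.20 TPM in wild type SCN, 7.44 TPM in duper SCN, 10.5 TPM in wild type liver and 11.5 TPM in duper liver. Unlike Fos and Fosb, it was lowest in SCN, with both liver libraries a little above it in unscaled TPM. The counting intervals of wild type SCN and wild type liver overlapped. In SCN against cortex the log2 fold change was -1.97 (SE 0.21, edgeR adjusted p 0.00279). Without wild type cortex the fold change was -1.83 and the edgeR adjusted p 0.0687.

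The next members are DNA-binding factors outside AP-1. Egr1 encodes a zinc finger transcription factor. Egr1 was at 162 TPM in wild type cortex, 157 TPM in duper cortex, 7.66 TPM in wild type SCN, 10.9 TPM in duper SCN, 11.2 TPM in wild type liver and 8.59 TPM in duper liver. Its SCN and liver libraries interleaved, and both tissues lay far below cortex. In wild type the TPM in cortex was 21.2 times that in SCN, and in duper 14.5 times. The log2 fold change in SCN against cortex was -4.15 (SE 0.21, edgeR adjusted p 0.000508).

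Egr3 encodes another zinc finger factor of the EGR family. Egr3 was at 79.4 TPM in wild type cortex, 79.7 TPM in duper cortex, 2.27 TPM in wild type SCN, 2.96 TPM in duper SCN, 0.194 TPM in wild type liver and 0.198 TPM in duper liver. The tissues formed separate steps, and within a step the genotypes lay close together. No other member differed as much between SCN and cortex, with a log2 fold change of -4.91 (SE 0.18, edgeR adjusted p 0.000296). In the deposited transcripts the make-up of Egr3 varied between libraries, also within SCN. Its longest transcript, of 4191 bases, made up 50.5% of the gene's TPM in wild type cortex and 40.3% in duper cortex. It made up 97.4% in wild type SCN, from 142 counts for the gene, and 72.5% in duper SCN, from 43. In liver, from 30 counts in wild type and 38 in duper, the transcript of 3819 bases made up nearly all of it.

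Nr4a1 encodes an orphan nuclear receptor. Nr4a1 was at 97.7 TPM in wild type cortex, 119.9 TPM in duper cortex, 6.14 TPM in wild type SCN, 8.22 TPM in duper SCN, 3.74 TPM in wild type liver and 1.51 TPM in duper liver. In unscaled TPM it had the order cortex, SCN, liver in both genotypes, with duper above wild type in the brain and below it in liver. The log2 fold change in SCN against cortex was -3.97 (SE 0.39, edgeR adjusted p 0.00192). Its leading transcript, of 2506 bases, carried between 63.2% of the gene's TPM, in wild type SCN, and 98.3%, in duper cortex.

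Npas4 encodes a bHLH-PAS transcription factor that responds to calcium entry in neurons. Npas4 was at 5.45 TPM in wild type cortex, 6.19 TPM in duper cortex, 3.97 TPM in wild type SCN, 4.22 TPM in duper SCN, 0.555 TPM in wild type liver and 0.215 TPM in duper liver. Cortex and SCN were nearer to each other than for most members, and liver was lower. SCN against cortex gave a log2 fold change of -0.52 (SE 0.33, edgeR adjusted p 0.368), which was not called. Its level is less certain than the others, because its transcript models are 15117 and 15464 bases long, against 1904 to 4191 bases for the other members. Its estimated counts summed over the gene were fractions, as Kallisto gives where reads also match transcripts of another gene.

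The last members act outside the nucleus's transcription factors or have a less defined role. Arc encodes a synaptic protein that regulates the uptake of AMPA receptors, and its RNA travels to dendrites. Arc was at 118 TPM in wild type cortex, 77.1 TPM in duper cortex, 6.81 TPM in wild type SCN and 6.13 TPM in duper SCN. In liver it was close to absent, with 6 counts in wild type (0.0481 TPM) and 1 in duper (0.00644 TPM). The order cortex, SCN, liver held in each genotype without overlap. The log2 fold change in SCN against cortex was -3.91 (SE 0.24, edgeR adjusted p 0.000580). Its transcript of 3134 bases carried 71.3% of the gene's TPM in wild type cortex and 64.0% in duper cortex, and close to all of it in SCN.

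Dusp1 encodes a phosphatase that switches off MAP kinases. Dusp1 was at 43.5 TPM in wild type cortex, 43.0 TPM in duper cortex, 11.8 TPM in wild type SCN, 11.2 TPM in duper SCN, 16.9 TPM in wild type liver and 9.27 TPM in duper liver. Cortex was highest, and the SCN values lay between those of the liver libraries. The log2 fold change in SCN against cortex was -1.93 (SE 0.23, edgeR adjusted p 0.00368). Without duper cortex it was -1.73 and the edgeR adjusted p 0.0603.

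Ier2 encodes a nuclear protein induced by growth factors. Ier2 was at 11.1 TPM in wild type cortex, 5.55 TPM in duper cortex, 5.78 TPM in wild type SCN, 5.15 TPM in duper SCN, 7.27 TPM in wild type liver and 7.98 TPM in duper liver. The tissues overlapped: wild type cortex stood apart at the top, while duper cortex lay among the SCN libraries and under both liver libraries. SCN against cortex gave a log2 fold change of -0.57 (SE 0.35, edgeR adjusted p 0.352), which was not called. Without wild type cortex its fold change was 0.051, while in duper libraries alone it was -0.11.

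Taken over the members, SCN against cortex had 8 of 10 called lower and 0 called higher. Over all genes tested, 7.28% were called lower and 3.91% higher. By edgeR 0 members had an unadjusted p under 0.05 in the higher direction, and DESeq2 and limma also called 0 higher. The median log2 fold change of the members was -2.32, against 0.017 over all genes. The number called lower was 5 without duper cortex, 5 without wild type cortex, 6 without wild type SCN and 7 without duper SCN, where over all genes 1.79%, 1.07%, 2.60% and 3.93% were called lower. Egr1, Egr3, Arc and Nr4a1 were called in each of those fits. With TMM scaling replaced by library size, the median of all genes moved from 0.017 to 0.19 and 7 members were called, all but Fos of the same 8. Over all genes 7.65% were then called higher and 5.70% lower, so the more frequent direction turned. Each of the 10 members had a negative fold change under every scaling tried.

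The cell make-up differs between these tissues. Fewer cells of a type and less RNA per cell cannot be told apart in bulk tissue. The 8 neuron markers summed to 6850.1 TPM in wild type cortex, 7034 TPM in duper cortex, 3298 TPM in wild type SCN and 3755 TPM in duper SCN, led by Snap25. Of these 8, edgeR called 4 lower in SCN and 0 higher, with a median log2 fold change of -0.81, and DESeq2 and limma also called 0 higher. At an unadjusted p under 0.05 edgeR had 0 of them higher. The 5 markers of cortical excitatory neurons summed to 1024 TPM in wild type cortex, 946 TPM in duper cortex, 31.3 TPM in wild type SCN and 26.1 TPM in duper SCN. All 5 were called lower in SCN, with a median of -4.27, and the most abundant in cortex was Slc17a7 (767 TPM in wild type cortex, 669 TPM in duper cortex). The 3 markers of inhibitory neurons summed to 375 TPM in wild type cortex, 353 TPM in duper cortex, 584 TPM in wild type SCN and 629 TPM in duper SCN. Of these, Gad2 at 1.04 and Slc32a1 at 1.32 were called higher in SCN, and Gad1 at 0.21 was not called (edgeR adjusted p 0.644). The median of the inhibitory neuron markers was 1.04, and that of the members was -2.32. The part of these cell types in the fall of the 8 members was not tested.

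Other marker lists were also compared between SCN and cortex, where 4922 of 18275 genes had an unadjusted p under 0.05 by edgeR. Astrocyte markers (5 of 6 analysed) had 1 called higher, Aqp4 at 1.41, and 1 lower, Slc1a2 at -1.42, and summed to 1738 TPM in wild type cortex, 1935 TPM in duper cortex, 1342 TPM in wild type SCN and 1502 TPM in duper SCN. Oligodendrocyte markers (3 of 6 analysed) had 0 called by edgeR, although 3 had an unadjusted p under 0.05 and limma called 1 higher, and summed to 1769, 2323, 3363 and 2912 TPM in the same order. Microglia markers had 0 of 7 called, with 1 at an unadjusted p under 0.05, and endothelium markers 0 of 5, with 1 at an unadjusted p under 0.05, by edgeR, and DESeq2 and limma called 0 of either list. Choroid plexus and ependyma markers (4 of 5 analysed) had 0 called by edgeR, with 1 at an unadjusted p under 0.05, and 1 called lower by DESeq2 and by limma. Their sum was 18.3 TPM in wild type cortex, 41.2 TPM in duper cortex, 48.2 TPM in wild type SCN and 41.0 TPM in duper SCN. Of the hepatocyte markers 1 of 7 was called lower in SCN, Ttr, which choroid plexus also makes and which reached 2505 TPM in duper cortex.

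Comparisons with liver depend on how libraries are scaled. TMM sets the bulk of genes equal between tissues, so the median log2 fold change of all genes was -0.025 in SCN against liver and 0.017 in cortex against liver. With library size in place of TMM those medians were 1.27 and 1.14. The 3 tissue comparisons share libraries, so their values are given side by side and no overlap between them is counted. Calls below are relative to the bulk of genes unless stated.

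In SCN against liver, 4 members were called higher and 4 lower with TMM, but 6 higher and 1 lower with library size, and 5 higher and 0 lower by limma on TPM. Over all genes, 32.9% were called higher and 31.9% lower with TMM, 60.8% and 12.7% with library size, and 65.8% and 11.1% by limma on TPM. The median of the members was 0.091, moving to -0.56 without duper SCN and 0.81 without wild type SCN. Those called higher were Fos at 1.44, Egr3 at 2.24, Arc at 6.35 (2.86 to 7.95 over the alternatives) and Npas4 at 1.94 on the log2 scale, and each stayed called higher under every alternative in which it was tested. Those called lower were Junb at -1.97, Egr1 at -1.70, Dusp1 at -1.71 and Ier2 at -2.08. Their direction held under every scaling of the fit, although in unscaled TPM duper SCN lay above duper liver for Egr1 (10.9 and 8.59 TPM) and Dusp1 (11.2 and 9.27 TPM). However, Egr1, Dusp1 and Ier2 were not called with library size, at -0.41, -0.43 and -0.78, and Junb was not called by limma on TPM, at -0.37. Nr4a1 had no stable direction: -0.097 with TMM, 1.18 with library size, -0.76 without duper liver and 0.67 without wild type liver. Fosb, at 0.28, was not called (edgeR adjusted p 0.693), and its fold change was -0.69 without duper SCN and -0.30 without duper liver. It was called higher with library size, at 1.57 (edgeR adjusted p 0.0486), and by limma on log2(TPM + 0.1), at 1.56.

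In cortex against liver, 7 members were called higher and 1 lower with TMM, and 9 higher and 0 lower with library size. Over all genes 33.6% were called higher and 31.9% lower with TMM, and 56.3% and 14.7% with library size. The members' median was 2.50. Arc had the largest fold change among them, 10.26 (SE 0.37), resting on 6 and 1 liver counts and ranging from 6.55 to 11.60 over the alternatives, followed by Egr3 at 7.15, Nr4a1 at 3.87, Fosb at 2.96, Fos at 2.53, Npas4 at 2.46 and Egr1 at 2.45. These 7 were higher under every alternative in which they were tested. Junb, at -0.0026 with TMM (edgeR adjusted p 0.992), was called higher at 1.13 with library size. Dusp1, at 0.21 with TMM (edgeR adjusted p 0.398), was called higher at 1.33 with library size. Ier2 was the member called lower, at -1.51, but it was not called with library size at -0.38, reversed to 0.050 by limma on TPM, and without duper cortex was -0.96 with an edgeR adjusted p of 0.0608.

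**Figure D2:**
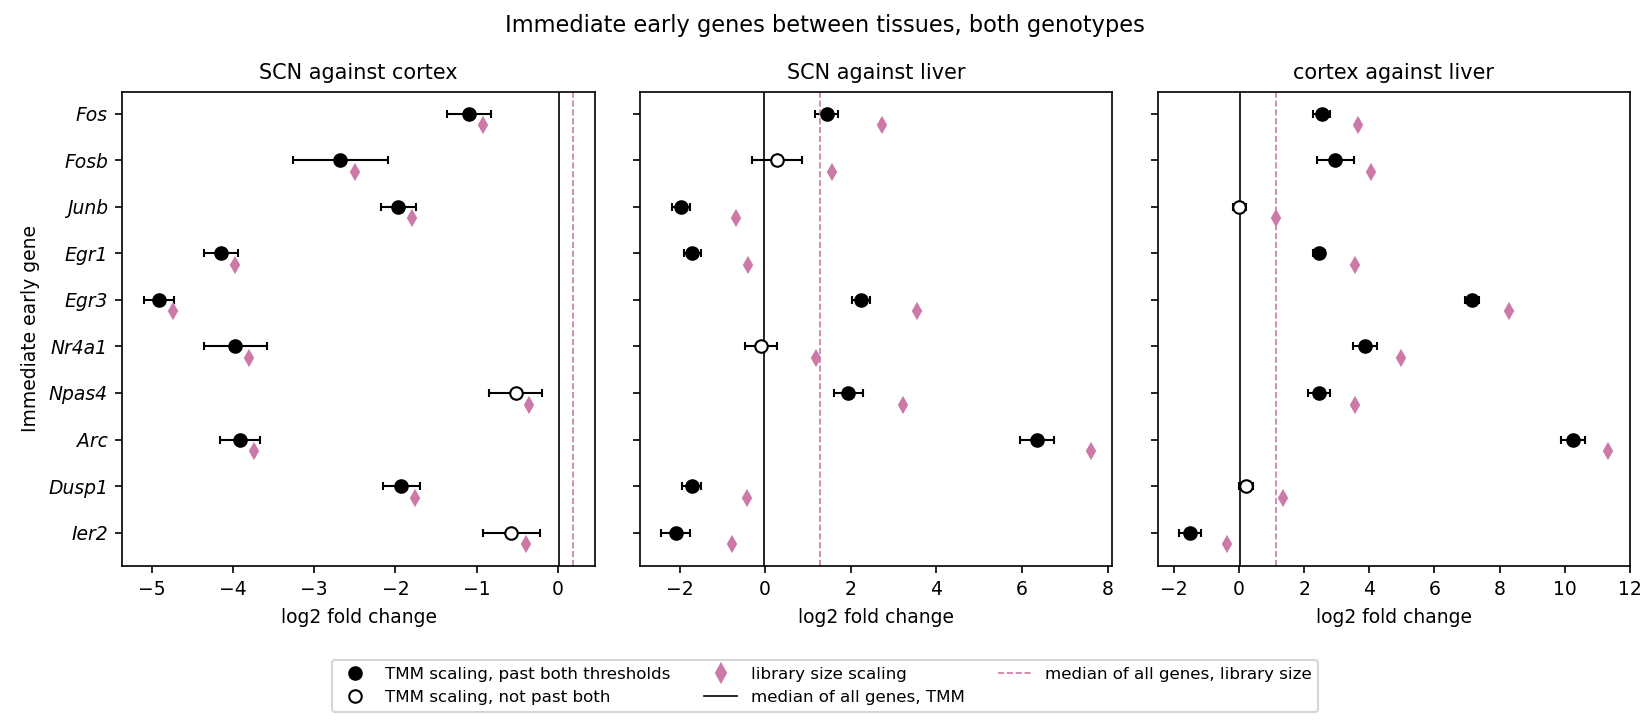
Log2 fold change of each immediate early gene in the 3 tissue comparisons, both genotypes in 1 fit. Circles with bars are TMM-scaled values with standard errors, filled where called; diamonds are values scaled by library size, and vertical lines mark the median of all genes under each scaling. In SCN against cortex all 10 genes lie under 0 with either scaling, while against liver Nr4a1 in SCN and Junb in cortex go from near 0 (-0.097 and -0.0026) to 1.18 and 1.13.

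The study's own comparison in these RNA data was of duper with wild type. Across the 3 tissues, with tissue in the model and tissues standing in for replicates, edgeR called 0 of the 10 members. At an unadjusted p under 0.05 edgeR also gave 0, against 606 of the 18275 genes, and DESeq2 and limma each called 0. Over all 18275 genes edgeR called 1 gene, Rps27, which is 0.00547%. DESeq2 called 41 genes, the likelihood ratio test 91 and the fit with no filter beyond 1 count 48, with 0 members in each. The members' adjusted p was 0.998 by edgeR throughout. Their median log2 fold change was -0.11, against 0.014 for all genes, with 4 members above 0 and 6 below. This median was -0.25 without the SCN libraries and 0.086 without the liver libraries. The lowest value was that of Arc, -0.51 (SE 0.22, unadjusted p 0.0544 by edgeR), and the highest that of Fosb, 0.37 (SE 0.46). A difference shared by the tissues was therefore not detected for any member, which is not evidence that none exists.

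Within a tissue there is 1 set of values for each genotype and no test. The log2 ratio of TPM, duper over wild type, was taken after adding 1 to both, and a gene counted as past the threshold when it exceeded 0.58 in either direction. A gene was counted only if its TPM averaged 1 or more over the 2 libraries. Intervals are exact ones of the ratio of counts, scaled to TPM without the added 1. Whether the genotype difference varies between tissues cannot be tested with 1 set of values each.

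In cortex 0 of 10 members were past the threshold upward and 2 downward, where 8.24% of 18096 genes were higher and 7.75% lower. The members' median was -0.031, against 0.023 for all genes. Arc, at 118 and 77.1 TPM in wild type and duper, had a log2 ratio of -0.60. Without the added 1 it was -0.61, with an interval from -0.73 to -0.49 that spans the threshold. Ier2, at 11.1 and 5.55 TPM, had a ratio of -0.89, from 97 counts in wild type and 73 in duper. Without the added 1 its ratio was -1.004, with an interval from -1.46 to -0.55. Nr4a1 was the highest at 0.29, where the interval from 0.16 to 0.43 excluded 0. The other members ranged from -0.22, for Junb, to 0.16, for Npas4. Fos, Fosb, Egr1, Egr3, Npas4 and Dusp1 all had intervals that spanned 0, so any difference was not detectable at this depth.

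In SCN 1 of 10 members was past the threshold upward, Fosb, and 0 downward, where 6.67% of 18305 genes were higher and 7.7% lower. The members' median was 0.18, against 0.018 for all genes. Fosb had a ratio of 0.90 with the added 1 and 1.77 without it, with an interval from 0.95 to 2.57. Its level was the lowest of the members, so the ratio rests on few counts, 31 and 25. Fosb also reached a mean of 1 TPM only through duper (0.562 TPM in wild type, 1.91 TPM in duper). The filter that let it be counted thus depended on the difference itself, and no conclusion is drawn from this count. Fos was at 0.41 (0.45 without the added 1, interval 0.082 to 0.80), from 269 counts in wild type and 87 in duper. Egr1 was at 0.45 (0.50 without it, interval 0.19 to 0.81), from 351 and 118 counts. Nr4a1 was at 0.37 (0.42 without it, interval 0.014 to 0.81), from 224 and 71 counts. These 4 members, Fosb included, had intervals above 0, and none of the 10 had an interval wholly below it. Such intervals were not computed over all genes, so no conclusion is drawn from that count. Junb was the lowest, at -0.27, with an interval from -0.69 to 0.056. The neuron markers had a median ratio of 0.18 in SCN, all 8 above 0, and the SCN markers a median of -0.56, all 5 counted below 0. The microglia and macrophage markers had a median of 0.36, all 7 above 0 and 1 past the threshold. Medians were 0.12 for astrocyte markers (4 above 0, 1 below), -0.21 for oligodendrocyte markers (all 3 below) and 0.17 for endothelium markers (3 above, 2 below). They were 0.14 for inhibitory neuron markers (all 3 above) and -0.24 for cortical excitatory neuron markers (1 above, 4 below). For neighbouring hypothalamus and pituitary genes the median was -0.29 (2 above, 3 below). The part of cell make-up in these ratios was not tested.

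In liver 6 members reached a mean of 1 TPM. Of these, 0 were past the threshold upward and 2 downward, where 4.75% of 14054 genes were higher and 10.5% lower. The members' median was -0.21, against -0.10 for all genes. Nr4a1 had a ratio of -0.92, or -1.31 without the added 1, with an interval from -1.58 to -1.05, from 368 counts in wild type and 185 in duper. Dusp1 had a ratio of -0.80, or -0.86 without it, with an interval from -0.99 to -0.73, from 1218 and 833 counts. Egr1 was lower as well, at -0.35 (interval -0.50 to -0.28 around -0.39), short of the threshold. Junb, at 0.11, and Ier2, at 0.12, had intervals just above 0, while that of Fos, at -0.067, spanned 0. Among the members not counted, Npas4 had 356 counts in wild type and 172 in duper, and a ratio of -1.37 without the added 1 (interval -1.64 to -1.10). Arc, with 6 and 1 counts, had a ratio of -2.90 without the added 1 and an interval from -8.42 to 0.14. On TMM-normalized CPM the ratio of Junb was 0.30, of Ier2 0.31, of Egr1 -0.19 and of Fos 0.048. The microglia and macrophage markers had a median ratio of 0.72 in liver, all 4 counted above 0 and 3 past the threshold. The hepatocyte markers had a median of 0.064, with 5 above 0 and 2 below. Endothelium markers (4 counted) had a median of -0.26, with 1 above 0 and 3 below. The part of cell make-up in the liver ratios was not tested. Each liver ratio compares 1 set of merged reads with 1 other, so the spread between hamsters is not in these intervals.

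**Figure D3:**
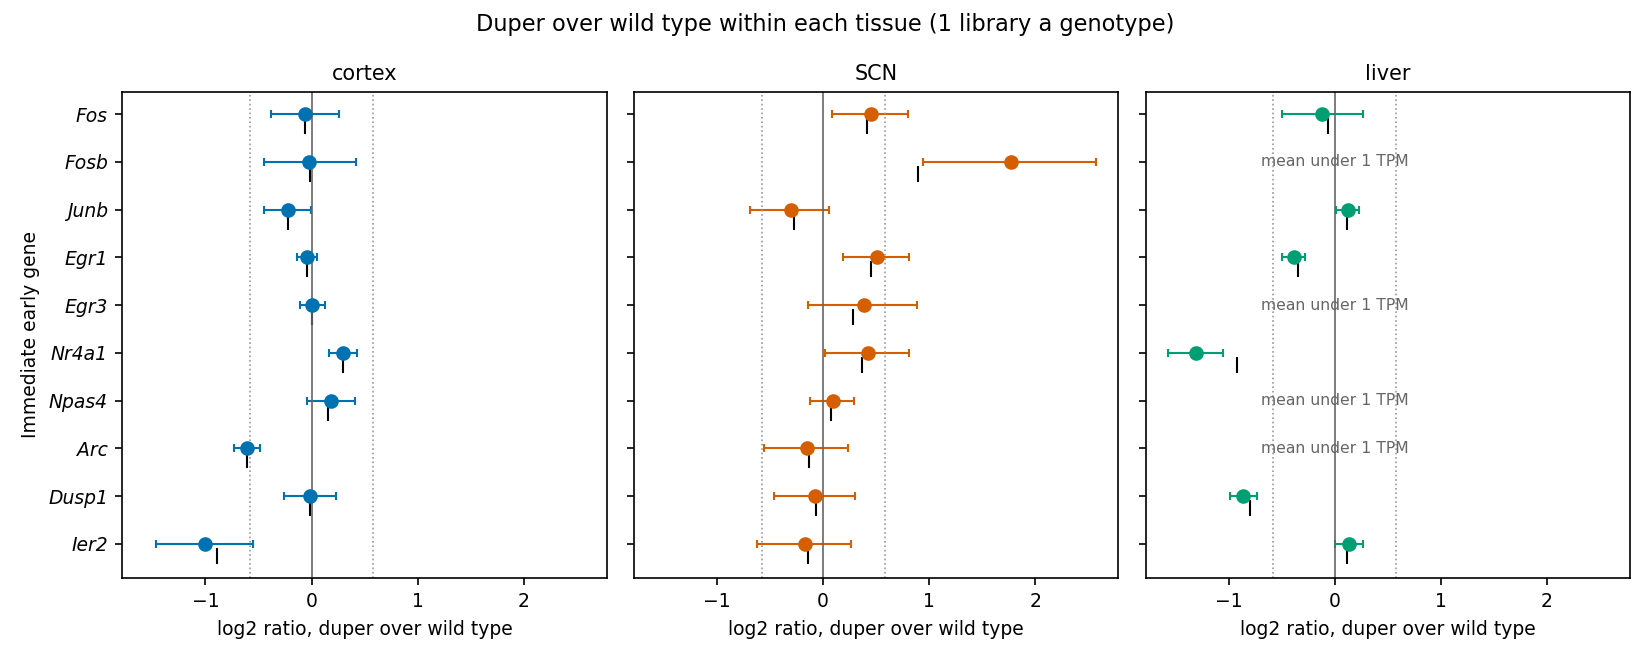
Log2 ratio of TPM, duper over wild type, of each immediate early gene within cortex, SCN and liver. Points are ratios without an added 1, with exact 95% intervals of the count ratio; short vertical ticks are ratios after adding 1 and dotted lines mark 0.58 in either direction. Arc and Ier2 in cortex (-0.60 and -0.89), Fosb in SCN (0.90) and Nr4a1 and Dusp1 in liver (-0.92 and -0.80) have ticks past the dotted lines.

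The wider pathway was followed in gene lists, beside 7.28% lower and 3.91% higher over all genes in SCN against cortex. Of 19 other inducible transcription factors, 0 were called higher and 7 lower in SCN against cortex, with a median of -0.33, led by Egr2 at -4.33 and Egr4 at -3.76. In the higher direction 2 of them had an unadjusted p under 0.05 by edgeR, and DESeq2 and limma each called 1. Of 21 inducible signalling regulators tested, 0 were called higher and 8 lower, with a median of -0.70, led by Trib1 at -3.28 and Dusp5 at -3.25. In the higher direction 2 had an unadjusted p under 0.05 by edgeR, and DESeq2 and limma called 0. Per1, a clock gene that signals also induce, was among those 8, at -1.35. Of 10 later activity-regulated effectors, 1 was called higher, Scg2 at 1.87, which DESeq2 did not call, and 4 lower, led by Homer1 at -2.93 and Ptgs2 at -2.46. Of 29 upstream kinases, coactivators and constitutive transcription factors, 1 was called higher, Adcyap1r1 at 1.06, and 13 lower, led by Mef2c at -3.97 and Camk2a at -2.90. Adcyap1r1 encodes the receptor for the peptide PACAP, MEF2C is a transcription factor and CAMK2A a calcium-dependent kinase. Of 4 heat shock genes, 0 were called by edgeR, DESeq2 or limma and 0 had an unadjusted p under 0.05 by edgeR. Hsph1 was lowest at -0.17 and Hspb1 highest at 0.34. Hspa1a and Hspa1b, also on that list, were not analysed, and whether stress differed between the tissues was not tested. The members' median of -2.32 was further from 0 than that of each of these lists.

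For the lists against liver, calls are by edgeR with TMM, relative to the bulk of genes, unless limma is named. The shares over all genes were 32.9% higher and 31.9% lower for SCN, and 33.6% higher and 31.9% lower for cortex. By limma on TPM they were 65.8% and 11.1% for SCN, and 65.3% and 11.9% for cortex. In SCN against liver, 4 of the 19 inducible transcription factors were called higher, led by Egr4, listed at 0 in liver, and Nr4a3, and 9 lower, led by Atf3 and Csrnp1. Of the signalling regulators 3 were higher, led by Rgs2 and Dusp4, and 14 lower, led by Btg2 and Trib1. Of the later effectors 5 were higher, led by Vgf and Pcsk1, and 3 lower, led by Inhba and Nrn1. Of the upstream genes 17 were higher, led by Grin1 and Grin2b, and 5 lower, led by Elk4 and Map2k2. In wild type and duper liver Grin1 had 0 and 3 counts, Vgf 1 and 7, and Pcsk1 2 and 1, while Grin2b had 0 in both. The size of their fold changes against liver is therefore uncertain. Of the 4 heat shock genes edgeR called 0 higher and 2 lower, Hspa8 and Dnajb1, and had 0 higher at an unadjusted p under 0.05, but on TPM limma called 4 higher and 0 lower. Limma on TPM moved the other lists upward too, to 10 higher and 7 lower for the inducible transcription factors, 8 and 9 for the signalling regulators, 7 and 1 for the later effectors and 25 and 0 for the upstream genes. In cortex against liver the inducible transcription factors had 6 higher, led by Egr4 and Nr4a3, and 8 lower, led by Atf3 and Maff. The signalling regulators had 5 higher, led by Ier5 and Ier5l, and 13 lower, led by Zfp36 and Errfi1. The later effectors had 8 higher, led by Pcsk1 and Vgf, and 1 lower, Inhba. The upstream genes had 19 higher, led by Grin1 and Camk2b (7 counts in wild type liver and 5 in duper liver), and 4 lower, led by Elk3 and Crtc2. Of the heat shock genes edgeR called 0 higher and 2 lower, Dnajb1 and Hspa8, with 1 higher at an unadjusted p under 0.05, but limma on TPM called 3 higher and 0 lower. The other lists by limma had 10 higher and 5 lower for the inducible transcription factors, 8 and 4 for the signalling regulators, 9 and 0 for the later effectors and 25 and 0 for the upstream genes.

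Between the genotypes edgeR, DESeq2 and limma called 0 genes of each list. At an unadjusted p under 0.05 edgeR had 1 of the inducible transcription factors, 2 of the signalling regulators, 1 of the later effectors, 0 of the upstream genes and 0 of the heat shock genes, beside 606 of 18275 over all genes. The inducible transcription factors ranged from -0.58, for Egr4, to 0.77, for Egr2, the signalling regulators from -0.64, for Gadd45b, to 0.41, for Plk2, and the later effectors from -0.22, for Vgf, to 0.35, for Pcsk1. The upstream genes ranged from -0.26, for Rps6ka2, to 0.39, for Rps6ka1, and the heat shock genes from -0.11, for Hsph1, to 0.0069, for Hspa8. Of the 7 microglia and macrophage markers, edgeR, DESeq2 and limma also called 0. All 7 were above 0, with a median of 0.42, and 3 had an unadjusted p under 0.05 by edgeR. Of the 8 neuron markers 7 were above 0, with a median of 0.14, and 0 had an unadjusted p under 0.05 by edgeR.

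The shape of the members' profile over the 6 libraries was compared with that of other genes. Each profile was log2(TPM + 1) centred on its own mean, and likeness was the mean absolute difference over the 6 libraries. The genes nearest to the mean profile of the 10 members, among 18548, were Exph5 at 0.081, Gcnt4 at 0.11, Ngef at 0.11, Npas2 at 0.12 and Rxfp1 at 0.13. The members themselves lay between 0.35, for Fosb, and 1.14, for Arc, from their own mean. The 5 genes named were picked as the nearest of 18548, so no conclusion is drawn from their smaller distances. For Fos alone the nearest genes were Mmp16 at 0.055, Cep83 at 0.078, Mfge8 at 0.079, Spata2 at 0.083 and St3gal6 at 0.086. The members nearest to Fos were Npas4 at 0.40 and Fosb at 0.55, and the furthest was Egr3 at 1.38. Here too the 5 genes named were picked as the nearest, of 18557, so their distances are not set against those of the members.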

How the data were processed

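The authors quantified reads with Kallisto (version not given) against MesAur2.0 and summed transcripts per gene with tximport. The deposited values are the authors' estimated counts, not normalized, and TPM, for genes and transcripts. Symbols matched BCM_Maur_2.0 for 31590 of 31593 genes. The test was the quasi-likelihood F test of edgeR 4.0.16 (R 4.3.3) on rounded counts, with TMM scaling, filterByExpr by genotype and terms for genotype and tissue (common dispersion 0.0340, residual degrees of freedom 2). SE is the absolute log2 fold change over the square root of F. Alternatives used DESeq2 1.42.0 and limma 3.58.1. Intervals were computed in Python 3.11.15 with scipy 1.17.1. Steps were tested on simulated data. The members and lists were chosen with earlier results of these data known. Genes named were all members, the 2 with the largest fold changes called in each direction of each list (the lowest and highest where 0 were called), and the 5 nearest profiles. Per1, Rps27 and the markers' genes were named after their values were seen. Results of 1 marker list are left out. Promoter motifs were not searched, since no promoter table was at hand.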

Additional observations from a re-analysis of the deposited data

Results flagged for a closer look

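Some members had a duper over wild type ratio on opposite sides of 0 in different tissues, with counting intervals that excluded 0 in each. Nr4a1 was higher in duper in cortex (log2 ratio 0.29) and in SCN (0.37) and lower in liver (-0.92). Egr1 was higher in SCN (0.45) and lower in liver (-0.35). Junb was lower in cortex (-0.22), where its interval ended at -0.0030, and higher in liver (0.11), where its interval began at 0.015. Ier2 was lower in cortex (-0.89) and higher in liver (0.12), where its interval began at 0.0068. Each value compares 1 set of values with 1 other, from pooled RNA in the brain and from merged reads in liver. The difference between tissues was not tested, and the spread between hamsters is unknown.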

How the results depend on the processing

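The count of 0 members called between genotypes held under all alternatives, as did the directions called in cortex against liver except for Ier2. In SCN against cortex the number of members called was 5 at the lowest and 8 at the highest when 1 library was left out, a choice made after seeing the data, and 7 to 8 under the other alternatives. In a fit without 1 library, the tissue left with 1 library is assumed to vary like the others. In SCN against liver 5 members were called by limma on log2(TPM + 1), against 8. That scale uses no TMM factors, and the median of all genes there was 1.15. How much of that median came from the few dominant liver genes was not tested. The test changed along with the scale, so the cause of the lower count was not tested. With library size in edgeR the median was 1.27 and 7 members were called.

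These values changed sign. Between genotypes, Egr1 was -0.023 with library size. Leaving out 1 tissue, Fos ranged from -0.031 to 0.19, Fosb from -0.20 to 0.67, Junb from -0.28 to 0.019, Egr1 from -0.15 to 0.13, Nr4a1 from -0.44 to 0.31, Npas4 from -0.60 to 0.11 and Ier2 from -0.61 to 0.040. Leaving out 1 library, Ier2 ranged from -1.06 to 0.051 in SCN against cortex, and in SCN against liver Fosb ranged from -0.69 to 1.25 and Nr4a1 from -0.76 to 0.67. Likewise, in cortex against liver Junb ranged from -0.33 to 0.27 and Dusp1 from -0.13 to 0.49. With all libraries in SCN against liver, Nr4a1 was 0.044 with DESeq2, 0.042 with length offsets, 1.18 with library size, and 1.23 and 1.54 by limma with pseudocounts of 1 and 0.1. In cortex against liver, Junb was 0.078 with DESeq2, 0.084 with length offsets, 1.13 with library size, 0.0014 with no filter beyond 1 count, 0.055 with at least 10 counts in every library, and 1.497 and 1.57 by limma with pseudocounts of 1 and 0.1. Ier2 was 0.050 and 0.047 by limma with the same pseudocounts. In wild type libraries alone, Fosb was -0.77 and Nr4a1 -0.74 in SCN against liver, and Junb was 0.29 and Dusp1 -0.097 in cortex against liver. In duper libraries alone, these were 1.31, 0.77, -0.27 and 0.54, and Ier2 in cortex against liver was -2.20. Of the 30 member values in each genotype alone, 16 in wild type and 18 in duper moved by more than their SE. Beyond the scaling of liver, the cause was not tested.

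Within tissues the members past 0.58 numbered the same with a pseudocount of 0.1, TMM-normalized CPM or rescaled TPM, but values moved. On TMM-normalized CPM and rescaled TPM, liver Fos went from -0.067 to 0.048 and 0.034, and cortex Egr3 from 0.0058 to -0.038 and -0.0039. In liver on these scales Junb went from 0.11 to 0.30 and 0.28, Ier2 from 0.12 to 0.31 and 0.28, Egr1 from -0.35 to -0.19 and -0.21, and Dusp1 from -0.80 to -0.65 and -0.66. With a pseudocount of 0.1, liver Nr4a1 went from -0.92 to -1.26 and Npas4 from -0.36 to -1.06, and on TMM-normalized CPM Npas4 was -1.001. The members' summed level in SCN over liver, on the log2 scale, went from 0.28 to -0.94 in wild type and from 0.79 to -0.59 in duper on rescaled TPM, an alternative added after seeing the data. The filter of 10 counts left Arc untested. The alternative promoter window was not run. Duper SCN gave 25 to 118 counts for each member other than Npas4, and liver gave 6 and 1 for Arc and 30 and 38 for Egr3.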
